A study of Mus musculus with 81 samples.

Results

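The BCL2 family genes set whether a cell lives or dies by the mitochondrial route. They were followed through every library of an RNA-seq series on mouse macrophages with or without a conditional knockout of histone H3.3. The 10 genes were taken by symbol, out of 55450 genes in the count tables: the BH3-only genes Bcl2l11, Bid, Bmf, Bbc3 and Pmaip1, the pore-forming genes Bax and Bak1, and the survival genes Bcl2, Bcl2l1 and Mcl1. WT mice carried floxed alleles of both H3.3 genes (H3f3a fl/fl, H3f3b fl/fl) and no Cre. The cKO mice carried the same alleles and LysM cre/cre, which deletes in myeloid cells and replaces both copies of Lyz2. The cKO and WT groups therefore differed in Lyz2 and Cre as well as in H3.3, and these cannot be told apart. The 3 double knockouts, H3.3cKO:StingKO, H3.3cKO:MavsKO and H3.3cKO:Irf7KO, added a germline knockout of Sting, Mavs or Irf7. Mice were C57BL/6 and 8 to 10 weeks old.

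Bone marrow-derived macrophages (BMDMs) were grown in medium conditioned by L929 cells, a source of M-CSF. The paper describes progenitors that divide early in culture and turn into postmitotic macrophages by day 7. There were 5 experiments. A time course had 3 WT and 3 cKO libraries on each of days 3, 5 and 7. A day 8 experiment compared untreated cells with cells given IFNg for 12 hours. Resident peritoneal macrophages gave 3 WT and 3 cKO libraries. An antibody experiment had no antibody, an isotype control antibody or an antibody blocking the type I interferon receptor IFNAR1, each antibody at 10 micrograms per mL from the start of culture to lysis on day 6. A double-knockout experiment had 3 sets of WT and cKO BMDMs, called sets 1, 2 and 3 here, and 3 libraries of each double knockout. Of 81 libraries, 79 were placed in a group. The other 2, both from day 8, carried a title and a library name that named different treatments, so the cKO day 8 groups had 2 libraries each and all other groups had 3. The interferon-induced genes Isg15 and Rsad2 go against both titles. They were at 28.6 and 130 CPM in the library titled as IFNg treated and at 661 and 3301 in the other, against 43.4 to 45.8 and 182 to 210 in untreated cKO and 720 to 1118 and 3668 to 3731 in treated cKO.

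BH3-only proteins sense damage or lost growth factor signals and bind the survival proteins, which otherwise hold the pore formers BAX and BAK in check. Freed BAX and BAK open the outer mitochondrial membrane and release cytochrome c, which starts the caspase cascade. Macrophages and their progenitors rely on MCL1 and on M-CSF signalling for survival, and BIM, the product of Bcl2l11, is the BH3-only protein most tied to growth factor withdrawal in blood cells. PUMA (Bbc3), NOXA (Pmaip1) and BAX are classic products of p53 target genes. Much of the control of this family acts on the proteins, which were not measured here.

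Levels below are CPM, read counts scaled to library size with trimmed-mean scaling within an experiment, and n is the number of libraries. Libraries held 3614967 to 45581528 counts on genes, the lowest of these in the day 8 experiment. The labels call the libraries biological replicates, and p-values measure the spread between them. H3f3a was at 33.6 to 93.8 CPM in 33 WT BMDM libraries and at 1.21 to 15.3 in 31 cKO BMDM libraries. H3f3b overlapped between the genotypes over all BMDM libraries, at 181 to 468 CPM in WT and 16.7 to 325 in cKO. It was lower by 2.93 to 3.11 on the log2 scale in the 3 arms of the antibody experiment. In no other cKO against WT comparison did it pass the test, with differences of -0.41 to -0.16. The loss of H3f3b transcripts thus differed between experiments. The paper reports both complete and partial deletion of H3f3b among its cKO samples. Lyz2 was at 4465 to 23380 CPM in WT BMDMs against 3.3 to 81.9 in cKO. The gene for STING (Tmem173) was at 5.01 to 6.10 CPM in H3.3cKO:StingKO, and Irf7 was 1.73 lower on the log2 scale in H3.3cKO:Irf7KO than in cKO. Mavs was at 37.2 to 37.9 CPM in H3.3cKO:MavsKO, a log2 difference of -0.26 from cKO, so its total count hardly checks that label. The 8 macrophage markers, which include Adgre1 and Csf1r, summed to 2994 to 8234 CPM in BMDMs and to 11400 to 13590 in peritoneal macrophages, and none was at 0 in any group. The 10 neutrophil markers summed to 1592 to 4256 CPM on day 3 and to 75.4 to 278 on day 7. The 10 proliferation markers summed to 1471 to 2100 CPM on day 3 and 722 to 2330 on day 7 in WT. In cKO these sums were 1126 to 1239 on day 3 and 1725 to 2377 on day 7, so day 7 libraries still held proliferation transcripts. In such bulk samples fewer cells of a type and less RNA per cell cannot be told apart.

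The promoter windows of the family were read from RefSeq on GRCm38.p6, the build of the mm10 alignments. The 250 bases upstream of 16 annotated starts covered 9 of the 10 genes, all but Pmaip1. They were searched on both strands for the interferon-stimulated response element core GAAANNGAAA, the gamma-activated site TTCNNNGAA, the forkhead motif GTAAACA bound by FOXO factors and the p53 half-site. The 4 windows that held any match are shown, because FOXO factors and p53 are the regulators most tied to these genes in textbooks. The first lies on the plus strand at chr2:128125788-128126037, the second on the plus strand at chr7:16310011-16310260, the third on the minus strand at chr7:45466899-45467148 and the fourth on the minus strand at chr2:118544588-118544837. Capitals mark the match.
Bcl2l11: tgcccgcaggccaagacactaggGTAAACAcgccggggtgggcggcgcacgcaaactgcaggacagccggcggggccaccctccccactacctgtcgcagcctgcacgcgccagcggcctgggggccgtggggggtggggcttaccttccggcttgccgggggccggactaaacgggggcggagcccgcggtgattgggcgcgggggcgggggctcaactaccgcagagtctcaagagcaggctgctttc
Bbc3: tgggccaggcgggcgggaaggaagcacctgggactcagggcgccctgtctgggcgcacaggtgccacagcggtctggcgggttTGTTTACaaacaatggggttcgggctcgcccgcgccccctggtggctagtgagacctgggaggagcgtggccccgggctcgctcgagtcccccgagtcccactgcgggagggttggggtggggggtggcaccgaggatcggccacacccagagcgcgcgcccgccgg
Bax: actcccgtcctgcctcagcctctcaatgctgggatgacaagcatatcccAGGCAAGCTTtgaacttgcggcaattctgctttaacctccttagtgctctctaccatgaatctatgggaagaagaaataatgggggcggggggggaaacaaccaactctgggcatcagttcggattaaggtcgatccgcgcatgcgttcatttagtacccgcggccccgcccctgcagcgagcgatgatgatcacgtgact
Bmf: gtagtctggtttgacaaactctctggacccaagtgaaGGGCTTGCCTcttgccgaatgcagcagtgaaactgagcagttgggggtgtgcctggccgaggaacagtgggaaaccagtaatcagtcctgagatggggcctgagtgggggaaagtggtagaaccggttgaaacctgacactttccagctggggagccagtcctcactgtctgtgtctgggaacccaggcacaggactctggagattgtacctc
The forkhead motif began 227 bases before an annotated Bcl2l11 start and 167 before an annotated Bbc3 start. The p53 half-site began 201 bases before the Bax start and 213 before an annotated Bmf start. That Bmf start, at 118544587, lies inside the gene, which begins at 118549687 on the minus strand. The windows of the other annotated starts of Bcl2l11, Bbc3 and Bmf held no match. Of 32851 windows in the genome table, 3.17% held the forkhead motif and 7.13% the p53 half-site. The response element core, in 2.98% of all windows, and the gamma-activated site, in 7.02%, were in no window of these 9 genes. No match says only that these letters are not in this window.

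To compare levels between genes, CPM were divided by exon length to give RPKM. Mcl1, which keeps BAK and BIM bound, had the highest RPKM of the 10 genes in all 79 libraries, with a median of 154 and a range of 116 to 848. Bcl2l1, which encodes BCL-XL, followed with a median RPKM of 44.1, and the pore formers Bax and Bak1 came next at 34.97 and 34.9. Bcl2l11 and Bid had median RPKM of 18.8 and 18.2. Each of these pairs overlapped widely across libraries, so the order within a pair is not fixed. Bbc3 had a median RPKM of 10.1, Pmaip1 of 7.33, Bcl2 of 3.70 and Bmf of 1.47. Bcl2 itself, the founding survival gene of the family, was ranked 7 or lower in every library.

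**Figure D1:**
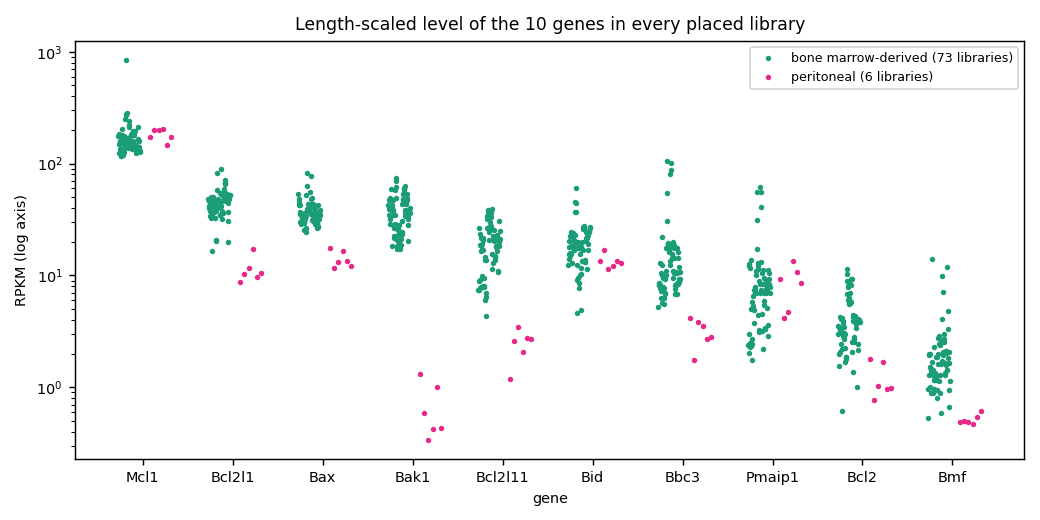
Length-scaled level (RPKM, log axis) of each gene in every placed library, in order of the median over 79 libraries, with 73 bone marrow-derived and 6 peritoneal libraries in separate colours. Mcl1 (median 154) lies above all other genes in every library, and Bak1 drops in peritoneal macrophages to the lowest values of the plot.

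Bak1, whose product is one of the proteins that perforate mitochondria, set the peritoneal macrophages apart. In WT peritoneal macrophages Bak1 was at 3.15, 1.42 and 0.820 CPM and in cKO at 1.03, 2.43 and 1.04. Across all placed BMDM libraries it lay between 41.5 and 178 CPM, with no overlap. Bcl2l11 was also low in the peritoneal libraries, at 9.55 to 28.0 CPM, and Bcl2l1 was at 40.1 to 79.7 CPM, which meets the lowest BMDM library at 75.2. Tissue, library method and experiment changed together here, so no test was run and the sources of this gap cannot be told apart.

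Every one of the 10 genes passed the filter on low counts in all 5 experiments. A gene was called where edgeR's quasi-likelihood test gave a Benjamini-Hochberg adjusted p under 0.05 over all genes tested. Between cKO and WT, 3 of the 10 genes were called on day 3, where 8.65% of 15955 tested genes were, 2 on day 5, where 3.12% were, and 1 on day 7, where 1.82% were. The calls were Pmaip1 each time, Bcl2l11 on days 3 and 5, and Bid on day 3 only. All 3 genes were higher in cKO and are death-promoting, as are 7 of the 10 members. Among all called genes, those higher in cKO also outnumbered those lower each time (958 against 422, 392 against 105 and 181 against 110). On day 8 no member was called in untreated cells (0.658% of genes called) or after IFNg (5.48%). DESeq2 called 0 and 2 of them there, and 1 and 3 had an unadjusted p under 0.05. Peritoneal macrophages also gave 0 calls among the members (1.06% of genes), 0 with DESeq2 and 1 at an unadjusted p under 0.05. With no antibody 2 members were called (8.16% of genes), with control antibody 2 (5.11%) and with IFNAR1 antibody 0 (0.698%), where DESeq2 called 0 and 3 had an unadjusted p under 0.05. The double-knockout experiment, the deepest of the 5, called 9 members in set 1 (34.6% of genes), 4 in set 2 (21.9%) and 9 in set 3 (35.9%).

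**Figure D2:**
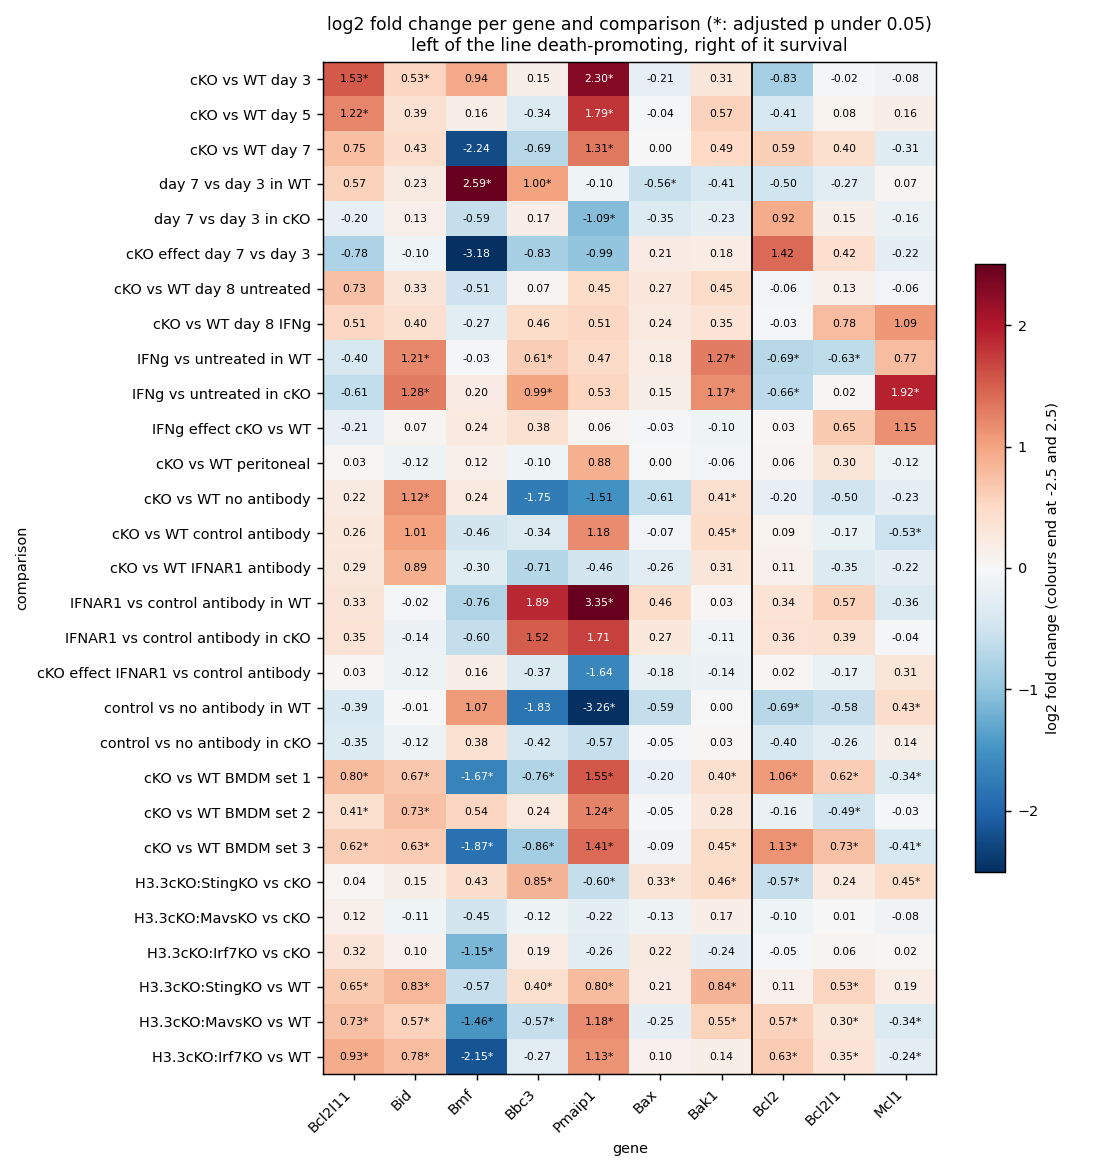
Fitted log2 fold change of each gene (columns, death-promoting left of the line and survival right of it) in each of 29 comparisons (rows), with an asterisk where the adjusted p was under 0.05. The Bcl2l11 column is above 0 in all 12 cKO against WT rows, with values from 0.03 to 1.53.

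Bcl2l11, the BIM gene, was higher in cKO than in WT in 12 of 12 comparisons and passed the test in 5. How many of all genes keep one sign over the 12 was not counted, so this is not shown to be particular to Bcl2l11. Nor are the 12 all independent, since same-numbered cKO libraries of days 3 and 7 deviated together (correlations of 0.138 to 0.415). The smallest of the 12 differences was 0.03. On day 8 after IFNg the 2 cKO libraries lay on either side of WT, and without cKO replicate 2 the difference was -0.59. On day 3 it was at 60.0, 59.7 and 71.0 CPM in WT and at 211, 150 and 188 in cKO. Every cKO library stood above every WT library, and Bcl2l11 rose by 1.53 on the log2 scale (SE 0.22, adjusted p = 0.000487). On day 5 WT libraries were at 73.0, 61.5 and 63.5 CPM and cKO libraries at 174, 133 and 155. The groups again stood apart, with a log2 fold change of 1.22 (SE 0.22, adjusted p = 0.00717). On day 7 the WT libraries spread, at 80.1, 139 and 65.1 CPM, against 175, 136 and 166 in cKO. WT replicate 2 overlapped the cKO range and the difference of 0.75 (SE 0.22) was not called (adjusted p = 0.0904). Without that library it was 1.13 (adjusted p = 0.00581). On day 3 the 10 neutrophil markers summed to 1592 to 3060 CPM in WT and 2755 to 4256 in cKO, the 8 B cell markers to 14.2 to 15 and 28.5 to 58.8. The 6 stromal markers summed to 9.61 to 50.8 CPM in WT and 28.5 to 76.3 in cKO on day 3, to 15 to 48 and 75.1 to 108 on day 5, and to 5.16 to 44.7 and 94.4 to 146 on day 7. The genotypes did not overlap in the stromal sums on days 5 and 7, and the part of these markers was not tested. As a test of the difference between days, the day 7 effect of cKO minus the day 3 effect came to -0.78 (SE 0.31) and was not called (adjusted p = 0.25).

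The 3 BMDM sets gave smaller Bcl2l11 differences. In set 1 WT libraries were at 124, 91.8 and 104 CPM and cKO libraries at 182, 165 and 207. In set 2 they were at 110, 117 and 119 against 145, 167 and 148, and in set 3 at 134, 85.4 and 87.7 against 166, 146 and 161. No cKO library overlapped its WT set, and Bcl2l11 rose in each: by 0.80 (SE 0.14, adjusted p = 9.81e-05), 0.41 (SE 0.14, adjusted p = 0.0374) and 0.62 (SE 0.14, adjusted p = 0.00116) on the log2 scale. The set 2 call was lost whichever of its 6 libraries was left out, with values from 0.34 to 0.45. Same-numbered WT libraries of sets 1 and 3 deviated together (correlations of 0.143 to 0.386), and the labels do not say whether these sets share animals. Of 9 neutrophil markers tested 5, 2 and 5 were called higher in cKO in sets 1, 2 and 3, and of 7 B cell markers 5, 2 and 3. In these sets 34.6%, 21.9% and 35.9% of all genes were called. The neutrophil sums were at 61.1 to 179 CPM in WT and 153 to 323 in cKO, the B cell sums at 3.04 to 7.10 and 6.13 to 15.1, and their part was not tested.

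In the other settings Bcl2l11 did not pass the test. Untreated day 8 WT libraries were at 63.5, 76.9 and 64.2 CPM and the cKO libraries at 116 and 110, which do not overlap, with a log2 difference of 0.73 (SE 0.34). With no antibody the difference was 0.22, with control antibody 0.26 and with IFNAR1 antibody 0.29, each with SE 0.13. Control antibody cells were at 165, 206 and 197 CPM in WT and 219, 221 and 241 in cKO, without overlap. In peritoneal macrophages the difference was 0.03 (SE 0.34), with WT at 9.55, 20.6 and 28.0 CPM around cKO at 16.5, 22.2 and 21.6. Over the 3 arms of the antibody experiment Bcl2l11 lay between 165 and 314 CPM.

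**Figure D3:**
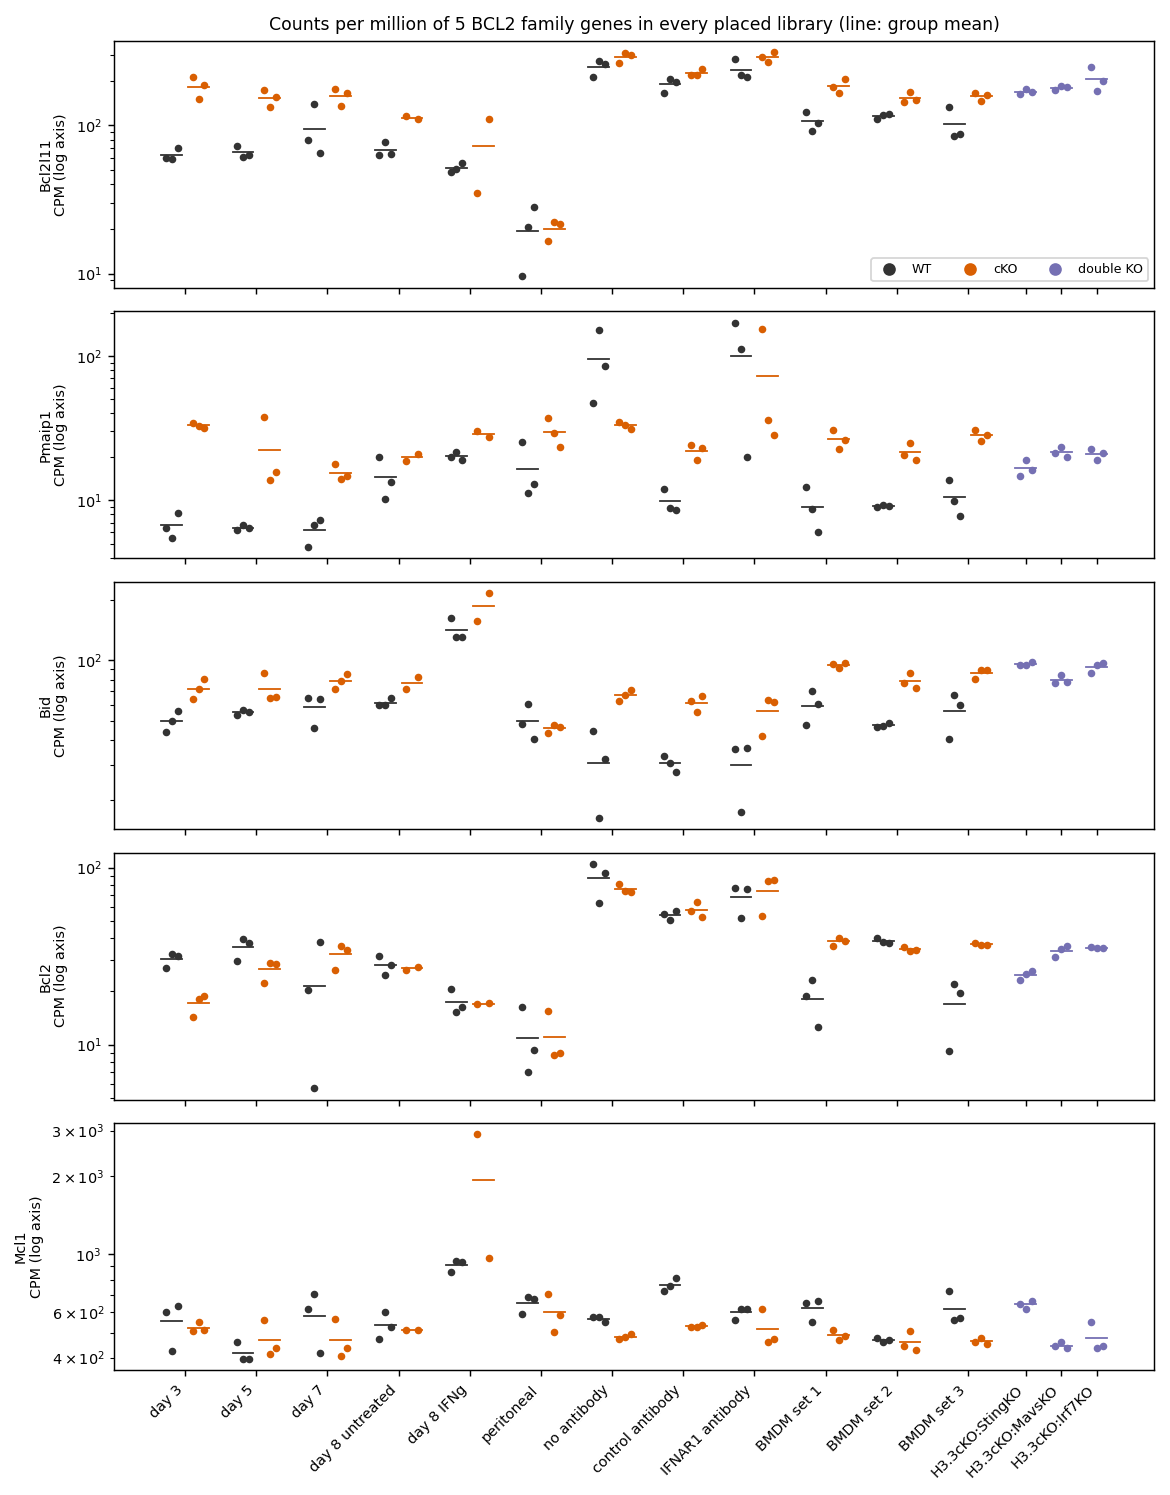
CPM (log axis) of Bcl2l11, Pmaip1, Bid, Bcl2 and Mcl1 in every placed library, by group, with WT, cKO and double knockout in separate colours and a line at each group mean. On day 3 the cKO libraries hold 150 to 211 CPM of Bcl2l11 against 59.7 to 71.0 in WT, and 31.9 to 34.5 CPM of Pmaip1 against 5.51 to 8.14.

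The 5 genes whose cKO against WT differences were closest to those of Bcl2l11 across the 12 comparisons, out of 11170 genes tested in all of them, were Tdrd7, Mitd1, Psmb8, Resf1 and Rnf34. Their mean absolute difference from the Bcl2l11 log2 fold change was 0.18 to 0.20. Psmb8 encodes a subunit of the immunoproteasome. This is a description over 12 comparisons and carries no test.

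Pmaip1 encodes NOXA, a BH3-only protein that binds MCL1. It had the largest fold change of the called members on days 3 and 5 and was the only member called on day 7. It was higher in cKO in 10 of 12 comparisons and called in 6. On day 3 it was at 6.48, 5.51 and 8.14 CPM in WT and at 34.5, 32.8 and 31.9 in cKO. The groups were far apart, and Pmaip1 rose by 2.30 on the log2 scale (SE 0.30, adjusted p = 0.000258). On day 5 the values were 6.21, 6.74 and 6.45 against 37.8, 13.8 and 15.7, and on day 7 they were 4.75, 6.72 and 7.34 against 17.8, 14.1 and 14.7. Each cKO library was above each WT library, and the log2 fold changes were 1.79 (SE 0.30, adjusted p = 0.0052) and 1.31 (SE 0.30, adjusted p = 0.0378). Within cKO, Pmaip1 fell from day 3 to day 7 by 1.09 on the log2 scale (SE 0.28, adjusted p = 0.0167). The fall was not called without cKO day 3 replicate 1 (-1.06) or without cKO day 7 replicate 2 (-1.02) or 3 (-1.05). With only the compared groups in the model, Pmaip1 was not called on day 5 (1.79, adjusted p = 0.0901) or day 7 (1.32, adjusted p = 0.128). The day 7 difference between genotypes was also not called when any of 5 of its 6 libraries was left out, with values from 1.14 to 1.38.

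Pmaip1 also rose in all 3 BMDM sets. WT libraries were at 12.4, 8.72 and 6.01 CPM in set 1, 9.02, 9.29 and 9.08 in set 2, and 13.9, 9.82 and 7.77 in set 3. The cKO libraries lay between 19.1 and 30.6 CPM, above every WT library of the 3 sets. The log2 fold changes were 1.55 (SE 0.19, adjusted p = 9.46e-07), 1.24 (SE 0.18, adjusted p = 1.6e-05) and 1.41 (SE 0.18, adjusted p = 2.06e-06). In peritoneal macrophages the difference was 0.88 (SE 0.32, adjusted p = 0.376), with WT at 25.2, 11.3 and 12.9 CPM and cKO at 37.1, 29.2 and 23.3. WT replicate 1 overlapped cKO there, and without it the difference was 1.31 (adjusted p = 0.0463).

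Bid, whose product is cut by caspase 8 and links death receptors to mitochondria, was higher in cKO in 11 of 12 comparisons and called in 5. On day 3 it was at 43.8, 49.7 and 55.6 CPM in WT and at 63.9, 71.6 and 80.4 in cKO, with no overlap and a log2 fold change of 0.53 (SE 0.15, adjusted p = 0.0354). Leaving out either of 2 libraries in each genotype ended that call: WT replicate 1 or 2 (0.42 and 0.51) and cKO replicate 2 or 3 (0.54 and 0.45). It was also lost with no filter on low counts (0.52, adjusted p = 0.0844). In set 1 Bid was at 47.3, 70.0 and 60.5 CPM in WT and at 95.5, 91.9 and 96.4 in cKO. Set 2 gave 46.6, 46.9 and 48.5 against 76.7, 86.5 and 72.8, and set 3 gave 40.5, 67.2 and 59.8 against 81.0, 88.9 and 89.2. The genotypes did not overlap in any set, and Bid rose by 0.67, 0.73 and 0.63 on the log2 scale (SE 0.13 each, adjusted p = 0.00022, 0.00013 and 0.000402). With no antibody WT libraries were at 44.2, 16.4 and 32.1 CPM and cKO libraries at 62.7, 66.9 and 71.1, a log2 fold change of 1.12 (SE 0.30, adjusted p = 0.0318). WT replicate 2 was the lowest, and without it the value was 0.81 (adjusted p = 0.131). That call was also lost without WT replicate 3 or any one cKO library, at 1.07 to 1.16, and with only the compared groups in the model (1.10, adjusted p = 0.0617). Bid overlaps Bcl2l13 and Gm17812 on the opposite strand and Gm44260 on its own strand, and counting did not use strand.

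Bmf encodes a BH3-only protein held at the cytoskeleton, and its level differed widely between WT libraries. On day 7 it was at 7.20, 74.2 and 8.84 CPM in WT and at 4.71, 6.74 and 7.45 in cKO. WT replicate 2 stood alone, and the difference of -2.24 (SE 0.66) was not called (adjusted p = 0.0949). It was called without WT replicate 1 (-2.70, adjusted p = 0.0196) or 3 (-2.66, adjusted p = 0.0404). Replicate 2 also held the fewest proliferation transcripts of its group, with 10 markers summing to 722 CPM against 1906 and 2330, and its part in the result was not tested. In set 1 Bmf was at 51.4, 21.5 and 37.5 CPM in WT and at 13.5, 10.2 and 10.8 in cKO, and in set 3 at 62.6, 17.5 and 25.5 against 9.69, 10.9 and 8.58. Both falls were called, at -1.67 (SE 0.31, adjusted p = 0.00018) and -1.87 (SE 0.31, adjusted p = 4.93e-05). In set 2 WT libraries were at 7.0, 8.61 and 6.80 CPM and cKO libraries at 11.1, 11 and 10.6. There the WT libraries were the lower ones, and the difference of 0.54 (SE 0.32) was not called (adjusted p = 0.264). The cKO level was alike in the 3 sets, at 8.58 to 13.5 CPM, while the WT level moved from 6.80 to 62.6.

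Bbc3, which encodes PUMA, also differed by set. WT libraries were at 30.7, 38.3 and 42.0 CPM in set 1 and at 37.0, 34.2 and 30.3 in set 3, against cKO at 23.2, 20.2 and 22.1 and at 17.7, 19.9 and 18.6. The groups did not overlap, and Bbc3 fell by 0.76 (SE 0.14, adjusted p = 0.000203) and by 0.86 (SE 0.14, adjusted p = 4.98e-05) on the log2 scale. In set 2 WT was at 17.6, 16.2 and 14.6 CPM and cKO at 17.4, 22.7 and 17.3, which overlap, with a difference of 0.24 (SE 0.14, adjusted p = 0.26). In the time course Bbc3 was not called between genotypes on any day, with differences of 0.15, -0.34 and -0.69 on days 3, 5 and 7.

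Bax, the other pore former, was called in 0 of 12 cKO against WT comparisons by edgeR. Its log2 differences ran from -0.61 to 0.27. On day 3 it was at 84.1, 67.4 and 76.0 CPM in WT and at 72.2, 67.0 and 57.9 in cKO, which overlap. Bak1 was higher in cKO in 11 of 12 comparisons and called in 4. In set 1 it was at 73.2, 105.5 and 113 CPM in WT and at 128, 116 and 141 in cKO, and in set 3 at 49.3, 76.5 and 68.1 against 80.7, 94.0 and 90.3. The rises were 0.40 (SE 0.13, adjusted p = 0.0202) and 0.45 (SE 0.13, adjusted p = 0.00905), without overlap. WT replicate 1 was the lowest library of both sets. Without it the values were 0.23 (adjusted p = 0.152) and 0.29 (adjusted p = 0.0817), and the set 1 call was also lost without cKO replicate 3, at 0.33, and with only the compared groups in the model (0.42, adjusted p = 0.0644). With no antibody Bak1 was at 49.7, 44.0 and 41.5 CPM in WT and at 63.2, 61.8 and 55.1 in cKO, and with control antibody at 47.5, 43.3 and 44.0 against 67.6, 59.1 and 57.4. These rises of 0.41 and 0.45 (SE 0.11 each, adjusted p = 0.0329 and 0.0283) were lost when 1 library was left out: 5 of 6 in the first case (0.36 to 0.47) and each of 6 in the second (0.37 to 0.50). Both were lost with no filter on low counts (0.40 and 0.45, adjusted p = 0.159 and 0.156), and the first also with only the compared groups in the model (0.40, adjusted p = 0.0658). Bak1 overlaps Ggnbp1 on the opposite strand, and Bax overlaps Gm45808 on its own strand.

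Among the survival genes, Mcl1 was lower in cKO in 10 of 12 comparisons and called in 3. With control antibody it was at 724, 756 and 814 CPM in WT and at 526, 527 and 536 in cKO, which did not overlap, and it fell by 0.53 (SE 0.11, adjusted p = 0.0115). Without WT replicate 2 or 3 the values were -0.54 and -0.49, with adjusted p of 0.0521 and 0.0514. In set 1 Mcl1 was at 647, 548 and 662 CPM against 513, 469 and 484, and in set 3 at 720, 557 and 570 against 461, 477 and 450. Every cKO library was below every WT library of its set, and Mcl1 fell by 0.34 (SE 0.10, adjusted p = 0.00765) and by 0.41 (SE 0.10, adjusted p = 0.00163). With only the compared groups in the model these values were -0.32 (adjusted p = 0.0572) and -0.36 (adjusted p = 0.0563). In set 2 WT was at 478, 458 and 467 CPM and cKO at 442, 505 and 428, a difference of -0.03 (SE 0.10, adjusted p = 0.884).

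Bcl2 and Bcl2l1 moved with the WT set that they were compared with. Bcl2 was at 18.8, 23.2 and 12.6 CPM in WT set 1 and at 9.25, 22.1 and 19.5 in WT set 3, but at 39.8, 38.1 and 37.8 in WT set 2. The cKO libraries of the 3 sets were all between 33.9 and 40.2 CPM. Bcl2 rose by 1.06 (SE 0.19, adjusted p = 0.000112) in set 1 and by 1.13 (SE 0.19, adjusted p = 5.15e-05) in set 3, and the set 2 difference was -0.16 (SE 0.18, adjusted p = 0.602). Bcl2l1 was at 148, 172 and 165 CPM in WT set 1, at 90.4, 168 and 141 in WT set 3, and at 324, 306 and 309 in WT set 2. The cKO libraries were at 204 to 274 CPM, above WT sets 1 and 3 and below WT set 2. Bcl2l1 rose by 0.62 (SE 0.13, adjusted p = 0.00055) and 0.73 (SE 0.13, adjusted p = 0.000105), and in set 2 fell by 0.49 (SE 0.13, adjusted p = 0.00732). In the time course neither gene was called. Bcl2 on day 3 was at 27.3, 32.4 and 31.5 CPM in WT and at 14.3, 18.1 and 18.8 in cKO, which did not overlap, with a difference of -0.83 (SE 0.39, adjusted p = 0.228). The Bcl2 gene overlaps D630008O14Rik on the opposite strand and Gm37053 and Mir3473f on its own strand.

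Death-promoting members were then weighed against survival members in each library as the mean log2 CPM of the 7 death-promoting genes minus that of the 3 survival genes. This balance is a description and carries no test. On day 3 it was -2.67, -2.37 and -2.32 in WT and -1.42 to -1.23 in cKO, a difference of 1.11 without overlap, and on day 5 the difference was 0.58 without overlap. On day 7 the genotypes overlapped and the difference was -0.25. In sets 1, 2 and 3 the differences were -0.33, 0.71 and -0.43, each without overlap. A mean of logs gives Bmf the same weight as Bax, so the balance was also taken as the log2 ratio of summed RPKM. On that scale cKO was higher by 0.44, 0.28 and 0.37 on days 3, 5 and 7 and by 0.33, 0.49 and 0.38 in the 3 sets. The sign on day 7 and in sets 1 and 3 thus depended on how members were weighted. In untreated cells on day 8 cKO was higher on both scales without overlap (0.27 and 0.39), and with control antibody as well (0.49 and 0.66). After IFNg the differences were -0.29 and -0.51, with no antibody 0.10 and -0.17, with IFNAR1 antibody 0.10 and 0.09 and in peritoneal macrophages 0.07 and 0.23, all with overlap. After IFNg in WT the mean-log balance was 0.68 higher without overlap and the summed ratio 0.18 higher with overlap, and in cKO the differences were 0.12 and -0.72, both with overlap. Between control and no antibody in WT they were -0.38 and -1.06, and between IFNAR1 and control antibody 0.45 and 0.98, without overlap, while in cKO the mean-log differences were 0.01 and 0.06 with overlap and those of the summed ratio -0.22 and 0.40 without. The double knockouts overlapped cKO on both scales, at -0.13 to 0.20 and -0.08 to 0.05. On day 3 the death-promoting genes summed to 119.6 RPKM (SD 4.75, n = 3) in WT and 154.8 (SD 4.90, n = 3) in cKO, and the survival genes to 208.4 (SD 34.3) and 197.3 (SD 8.41).

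**Figure D4:**
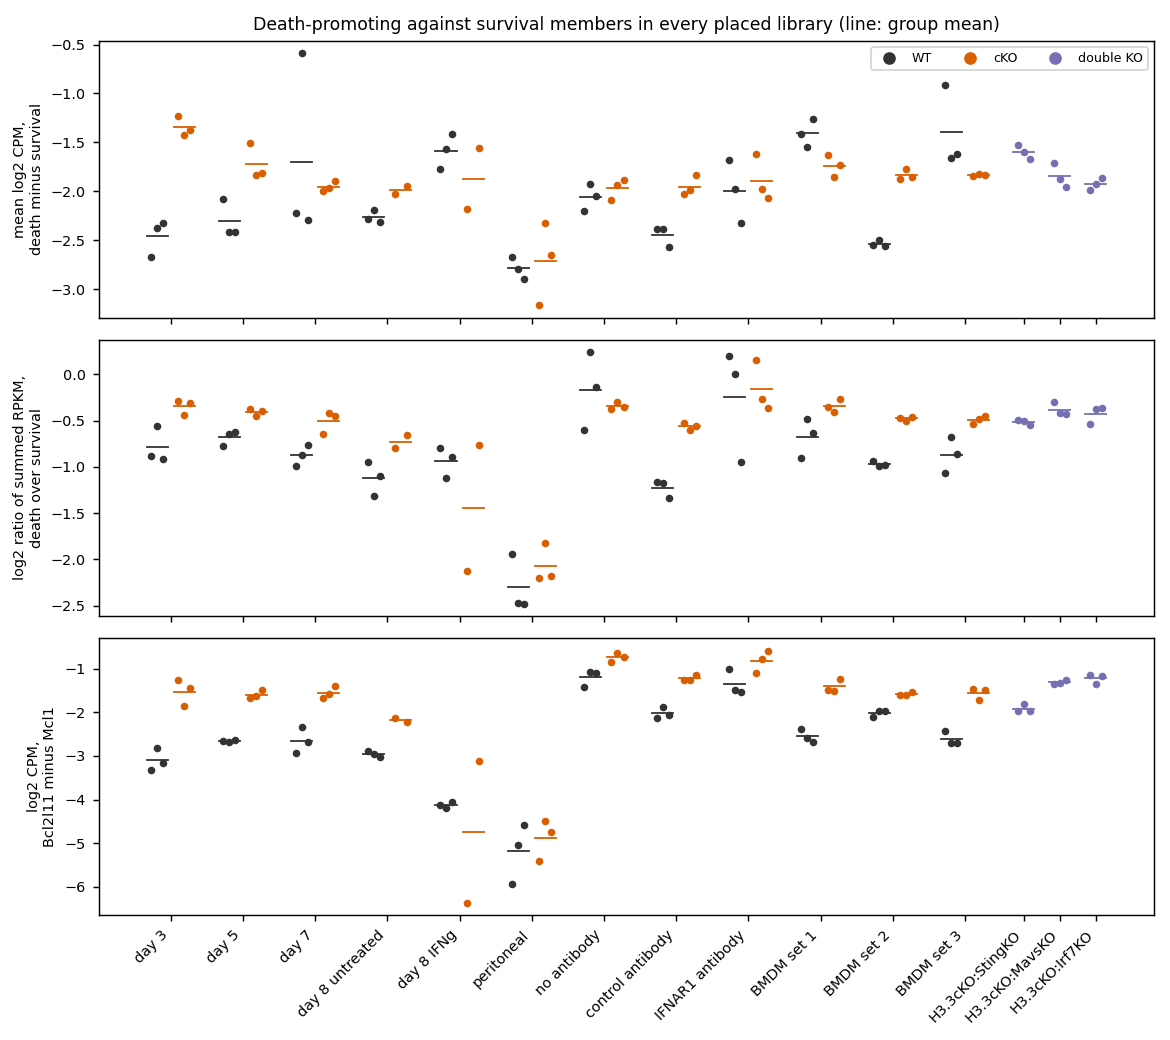
Balance of death-promoting over survival members in every placed library, as a difference of mean log2 CPM (top), a log2 ratio of summed RPKM (middle) and Bcl2l11 minus Mcl1 in log2 CPM (bottom), with a line at each group mean. On day 3 cKO lies above WT in all 3 panels, while in sets 1 and 3 it lies below WT in the top panel and above it in the lower panels.

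The log2 ratio of Bcl2l11 to Mcl1 in CPM was higher in cKO by 1.58, 1.06 and 1.10 on days 3, 5 and 7, by 0.79 in untreated cells on day 8 and by 1.14, 0.44 and 1.06 in the sets. The libraries did not overlap in any of these comparisons. It was higher by 0.46 with no antibody and by 0.80 with control antibody, also without overlap. With IFNAR1 antibody (0.52) and in peritoneal macrophages (0.30) the genotypes overlapped, and after IFNg the difference was -0.61 with overlap. With Bcl2 in place of Mcl1 the ratio did not keep its sign. Without overlap it was higher in cKO by 2.35 and 1.63 on days 3 and 5, by 0.79 in untreated day 8 cells and by 0.56 in set 2. On day 7 and in sets 1 and 3 the differences were -0.15, -0.31 and -0.56, with overlap. In the antibody arms, after IFNg and in peritoneal macrophages they were 0.11 to 0.39, all with overlap.

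From day 3 to day 7, 3 members were called in WT, where 24.5% of genes were, and 1 in cKO, where 14.7% were. In WT, Bax fell from 84.1, 67.4 and 76.0 CPM to 51.2, 54.9 and 48.3, without overlap, by 0.56 on the log2 scale (SE 0.12, adjusted p = 0.00442). Bmf was at 2.80, 5.10 and 6.74 CPM on day 3 in WT and rose by 2.59 (SE 0.68, adjusted p = 0.0129). Bbc3 rose from 11.2, 17.4 and 18.2 CPM to 21.4, 46.5 and 26.1, by 1.0 (SE 0.30, adjusted p = 0.025). Both rises rested on WT day 7 replicate 2, the highest library for each. Without it they were 0.70 (adjusted p = 0.176) and 0.60 (adjusted p = 0.151). They were also lost without WT day 3 replicate 1, at 2.33 and 0.80, and with only the compared groups in the model, at 2.58 (adjusted p = 0.126) and 0.98 (adjusted p = 0.112). The test of whether the cKO effect itself changed between days 3 and 7 called 0 members (0.0439% of genes, 7 in number). DESeq2 called 0 members there too, and 4 had an unadjusted p under 0.05.

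IFNg, the main activating cytokine of macrophages, moved 5 members in WT (38.9% of genes called) and 5 in cKO (33.9%). Bid went from 59.5, 59.5 and 64.5 CPM in untreated WT to 162, 131 and 131, a rise of 1.21 (SE 0.16, adjusted p = 0.000227). Bak1 went from 63.3, 51.7 and 53.8 CPM to 140.5, 119 and 149, a rise of 1.27 (SE 0.14, adjusted p = 9.76e-05). Neither gene's treated libraries overlapped the untreated ones. In cKO, Bid went from 71.8 and 82.4 CPM to 157 and 216, and Bak1 from 69.7 and 84.0 to 178 and 168, rises of 1.28 (SE 0.19, adjusted p = 0.000819) and 1.17 (SE 0.18, adjusted p = 0.000831). Bcl2 fell in both genotypes, by 0.69 in WT (SE 0.16, adjusted p = 0.00704) and by 0.66 in cKO (SE 0.20, adjusted p = 0.0295). The WT libraries went from 31.7, 24.6 and 28.1 CPM to 20.7, 15.3 and 16.3. Bcl2l1 fell in WT by 0.63 (SE 0.19, adjusted p = 0.0234), with untreated libraries at 168 to 183.5 CPM and treated libraries at 150, 93.5 and 94.5.

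Bbc3 was 0.61 higher in WT (SE 0.21, adjusted p = 0.0469), with libraries at 11.7, 16.4 and 13.5 CPM before and 19.7, 20.2 and 23.4 after. The replicate numbers paired these WT libraries, and with the number as a block the Bbc3 difference was 0.60 (adjusted p = 0.0895). It was lost without any one of 5 of the 6 libraries, at 0.48 to 0.64, and with RLE scaling (0.60, adjusted p = 0.0507), no filter (0.60, adjusted p = 0.0599) or DESeq2 (0.59, adjusted p = 0.0536). The Bcl2l1 fall was lost without untreated WT replicate 1 or 3 (-0.62 and -0.66) or treated replicate 2 or 3 (-0.51 and -0.52). In cKO, the Bbc3 rise of 0.99 (SE 0.27, adjusted p = 0.0176) was lost without either untreated library (0.96 and 0.99), and the Bcl2 fall was lost without either untreated library or treated replicate 2 (-0.69, -0.66 and -0.70). With only the compared groups in the model the cKO calls of Bid (1.30, adjusted p = 0.0521), Bbc3 (1.03, adjusted p = 0.142) and Bcl2 (-0.63, adjusted p = 0.164) were lost, and that of Bcl2 also with no filter (-0.77, adjusted p = 0.0519) or DESeq2 (-0.65, adjusted p = 0.0554).

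Mcl1 and Bcl2l11 after IFNg in cKO rested on 2 libraries that differed widely. Mcl1 was at 852, 945 and 935 CPM in treated WT and at 2900 and 968 in treated cKO, from 511 and 511 in untreated cKO. Its rise in cKO was 1.92 (SE 0.39, adjusted p = 0.00467), and 0.95, still called, without treated cKO replicate 1. It was not called with only the compared groups in the model (1.95, adjusted p = 0.107). With the 2 conflicting libraries placed by library name 6 members were called for IFNg in cKO (45.3% of genes), and with them placed by title, which their Isg15 and Rsad2 levels go against, 0 were (0% of genes). In WT the Mcl1 difference of 0.77 was not called, although treated and untreated libraries did not overlap. Scaled together with the 2 conflicting libraries, Mcl1 in WT was at 481, 611 and 536 CPM untreated and at 869, 953 and 953 treated. On that scale Bcl2l11 in WT was at 64.5, 78.2 and 65.3 CPM untreated and at 49.3, 51.6 and 56.8 treated, without overlap, and was not called. Bcl2l11 was at 48.3, 51.2 and 55.8 CPM in treated WT and at 35 and 111 in treated cKO, so that one cKO library lay below WT and one above. Treated cKO replicate 1 was the shallow library of the experiment, with 58 counts on Bcl2l11 against 944 in replicate 2. In it 57.1% of reads were unmapped, against 12.6% to 18.3% in the other day 8 libraries. The 6 stromal markers summed to 386 CPM in it against 62.5 in replicate 2, and the part of these values was not tested. Leaving out either treated cKO library leaves an arm of 1, and the p-values then assume that the lone library varies like the other groups. Without replicate 1 the cKO against WT difference of Bcl2l11 after IFNg was 1.13 (adjusted p = 0.000911), and without replicate 2 it was -0.59 (adjusted p = 0.0271). In that comparison 5 members were called without replicate 2, among them Mcl1, 1.64 higher in cKO, where 34.4% of all genes were. The test of whether IFNg acted differently in the genotypes called 0 members and 0% of genes (1206 genes at an unadjusted p under 0.05). For Mcl1 that difference was 1.15 (SE 0.49, adjusted p = 0.535), and without treated cKO replicate 2 it was 1.71 (adjusted p = 0.00017). For Bcl2l11 it was -0.21 (SE 0.49, adjusted p = 0.895), and without that library -1.32 (adjusted p = 0.00149), where 24.3% of all genes were called. DESeq2 called 0 members there, and 1 had an unadjusted p under 0.05.

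In the antibody experiment Pmaip1 and Bbc3 differed widely between WT libraries. With no antibody Pmaip1 was at 47.0, 152 and 85.2 CPM in WT and at 35, 33.2 and 31.3 in cKO, a difference of -1.51 (SE 0.65, adjusted p = 0.142) that was not called. With control antibody WT was at 12.0, 8.89 and 8.60 CPM and cKO at 24.2, 19 and 23.1, a difference of 1.18 (SE 0.69, adjusted p = 0.469). The genotypes did not overlap in either arm, in opposite order. With IFNAR1 antibody WT was at 170, 111.5 and 20.0 CPM and cKO at 154, 35.9 and 28.5, which overlap. Bbc3 followed the same libraries, at 65.3, 226 and 116 CPM in WT with no antibody, at 40.4, 39.4 and 34.9 with control antibody and at 170, 215 and 39.8 with IFNAR1 antibody. Its cKO libraries were between 26.6 and 41.2 CPM in all arms but one, the first IFNAR1 antibody library, at 187. With no antibody, Bbc3 (-2.08, adjusted p = 0.0372) and Bax (-0.85, adjusted p = 0.017) were called lower in cKO without WT replicate 1.

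A list of 7 p53-arm genes, which includes Cdkn1a, Mdm2 and Phlda3, summed to 2171, 4200 and 3250 CPM in WT with no antibody, to 1875, 1812 and 1906 with control antibody and to 3361, 2264 and 1777 with IFNAR1 antibody. In cKO the sums were 1551, 1624 and 1534, then 1511, 1463 and 1307, then 2414, 1722 and 1623. The proliferation markers summed to 1040 to 1170 CPM in WT with no antibody, to 195 to 457 with control antibody and to 946 to 2468 with IFNAR1 antibody. The part of either list in the Pmaip1 and Bbc3 values was not tested. In the time course the 7 p53-arm genes summed on day 3 to 1116 to 1473 CPM in WT and 952 to 1089 in cKO, lower in cKO without overlap. Their sums were 757 to 1044 and 818 to 1081 CPM on day 5, and 592 to 801 and 701 to 1081 on day 7, with overlap. Their part in the Pmaip1 differences of the time course was not tested either.

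Between IFNAR1 and control antibody 1 member was called in WT (11.2% of genes) and 0 in cKO (4.68%), where DESeq2 called 0 and 3 had an unadjusted p under 0.05. The WT call was Pmaip1, 3.35 higher with IFNAR1 antibody (SE 0.71, adjusted p = 0.00949). It was lost without control antibody replicate 2 (3.28, adjusted p = 0.0644) or 3 (3.27, adjusted p = 0.0513), and with only the compared groups in the model (3.37, adjusted p = 0.0684). Without WT IFNAR1 antibody replicate 3, the lowest of its group for Pmaip1 and Bbc3, 7 of the 10 members were called in place of 1, where 38.2% of all genes were in place of 11.2%. The 6 added were Bcl2l11 (0.40), Bmf (-1.28), Bbc3 (2.33), Bax (0.70), Bcl2l1 (0.78) and Mcl1 (-0.38). Bcl2l11 differed by 0.33 in WT and 0.35 in cKO, each with SE 0.13, and was not called in either. The test of whether the genotypes differed in this response called 0 members and 0% of genes, and DESeq2 called 0 members. No member had an unadjusted p under 0.05 in it, and 990 of all genes did. In cKO the 8 interferon reference genes summed to 167 to 283.7 CPM with control antibody and 129.5 to 166.5 with IFNAR1 antibody. In WT these sums were 24.6 to 27.4 and 21.6 to 24.6. The cKO sums with IFNAR1 antibody thus stayed above every WT sum of either arm. Irf7 was lower in cKO with IFNAR1 antibody than with control antibody but was not called (adjusted p = 0.143). How complete the block was was not tested.

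The control antibody was itself compared with no antibody. In WT 3 members were called (9.74% of genes) and in cKO 0 (2.09%), where DESeq2 called 0 and 1 had an unadjusted p under 0.05. In WT Pmaip1 was 3.26 lower with control antibody (SE 0.71, adjusted p = 0.0139), Bcl2 fell by 0.69 (SE 0.20, adjusted p = 0.0449) and Mcl1 rose by 0.43 (SE 0.11, adjusted p = 0.0276). Bcl2 was at 105, 62.8 and 93.4 CPM without antibody and at 55.0, 50.5 and 56.9 with it. The replicate numbers paired these libraries, and with the number as a block Bcl2 had a difference of -0.68 (adjusted p = 0.0503). With the number as a block within genotype Bmf was called as well, at 1.14 (adjusted p = 0.0369). Bcl2 and Mcl1 were each lost without any one of 5 of the 6 libraries, at -0.72 to -0.53 and at 0.39 to 0.45, and with no filter on low counts (-0.74, adjusted p = 0.0525, and 0.38, adjusted p = 0.0675). Pmaip1 was lost without the no antibody replicate 2 (-2.74) or control antibody replicate 2 or 3 (-3.19 and -3.18).

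The double knockouts were compared with the cKO libraries and with the WT libraries of all 3 sets, and these comparisons share their reference libraries. Against cKO, 6 members were called in H3.3cKO:StingKO (36.4% of genes), 0 in H3.3cKO:MavsKO (9.32%) and 1 in H3.3cKO:Irf7KO (10.6%). For H3.3cKO:MavsKO DESeq2 also called 0, and 0 had an unadjusted p under 0.05. Bcl2l11 was at 164, 176 and 167 CPM in H3.3cKO:StingKO, at 172, 183 and 181 in H3.3cKO:MavsKO and at 248, 171 and 199 in H3.3cKO:Irf7KO. These lie within or above the cKO range of 145 to 207 CPM and above every WT library, the highest of which was 134. Against cKO the Bcl2l11 differences were 0.04, 0.12 and 0.32, and none was called. Against WT, Bcl2l11 rose by 0.65 (adjusted p = 4.45e-05), 0.73 (adjusted p = 7.98e-06) and 0.93 (adjusted p = 4.79e-07), with SE 0.11 each.

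H3.3cKO:StingKO differed from cKO in members of both arms. Pmaip1 was at 14.8, 18.9 and 16.2 CPM, below every cKO library of the sets (19.1 to 30.6), and fell by 0.60 (SE 0.15, adjusted p = 0.00297). Bbc3 was at 39.9, 30.5 and 37.2 CPM, above every cKO library (17.3 to 23.2), and rose by 0.85 (SE 0.11, adjusted p = 4.81e-06). Bak1 rose by 0.46 (SE 0.10, adjusted p = 0.00115) and Bax by 0.33 (SE 0.11, adjusted p = 0.0175), the latter with overlap and lost without H3.3cKO:StingKO replicate 1 (0.27) or 3 (0.32). Bcl2 was at 23.2, 24.9 and 25.9 CPM against 33.9 to 40.2 in cKO and fell by 0.57 (SE 0.16, adjusted p = 0.00631). Mcl1 was at 646, 616 and 663 CPM against 428 to 513 in cKO and rose by 0.45 (SE 0.08, adjusted p = 8.39e-05). Against 1 set alone the calls of Pmaip1 (set 2, -0.38), Bak1 (set 1, 0.19) and Bax (sets 1 and 3, 0.23 and 0.33) were lost. The 6 stromal markers summed to 181 to 226 CPM in these 3 libraries against 26.6 to 80.0 in the cKO sets, and their part was not tested. In H3.3cKO:Irf7KO Bmf was at 3.48, 4.95 and 5.96 CPM against 8.58 to 13.5 in cKO and fell by 1.15 (SE 0.30, adjusted p = 0.0138). That call was lost without replicate 1 (-0.97) or 2 (-1.18), and with set 3 alone as reference.

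Against WT, 6 members were called in H3.3cKO:StingKO (40.2% of genes), 9 in H3.3cKO:MavsKO (43.2%) and 7 in H3.3cKO:Irf7KO (31.9%). Bid rose by 0.83, 0.57 and 0.78 and Pmaip1 by 0.80, 1.18 and 1.13 in the 3 lines, all without overlap, with adjusted p between 3.36e-07 and 0.000124. Results for other members depended on which WT set was the reference. With set 2 alone, Bcl2 and Bcl2l1 were lower than WT in all 3 lines (-0.64, -0.18 and -0.13, and -0.20, -0.43 and -0.38), where against all sets they were higher. With that reference Bmf was 0.94 higher in H3.3cKO:StingKO and 0.05 higher in H3.3cKO:MavsKO, against -0.57 and -1.46 over all sets.

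The rest of the pathway was read from gene lists. Of all genes, 8.65%, 3.12% and 1.82% were called between genotypes on days 3, 5 and 7. Of 9 apoptosome and caspase genes, 0 were called on any of these days. Of 9 death receptor genes 1 was called on days 3 and 5 and 0 on day 7. That was Tnfsf10, the ligand TRAIL, higher in cKO by 3.68 on day 3 (adjusted p = 0.0102) and 3.45 on day 5 (adjusted p = 0.0152). The 8 interferon reference genes were all called higher on both days. Their median log2 difference was 6.45 on day 3, beside a median of 0.94 for the 5 BH3-only genes and 0.04 for all genes tested. Cycs, the gene for cytochrome c, rose in sets 1 and 3 by 1.02 and 1.11, and Casp6 and the death receptor gene Fas fell in both, Casp6 by 0.73 and 0.97 and Fas by 1.18 and 1.13. After IFNg in WT 38.9% of all genes were called. Of 9 apoptosome and caspase genes 4 rose, and of 3 caspase inhibitor genes 2 rose. Of 9 death receptor genes 6 rose and 1 fell. The genes that rose included Fas (3.34), Tnfsf10 (6.04), Birc2 (1.62) and Birc3 (2.38). Bcl2l14, a family member outside the 10, rose by 8.62 in WT and 8.51 in cKO.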

How the data were processed

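RNA was sequenced from BMDMs and peritoneal macrophages. The authors trimmed reads with Cutadapt, aligned them to mm10 with STAR and deposited counts of reads per gene, and the unstranded count column of each table was used (0 other columns of per-sample values went unused, and reads split evenly between strands). Overlapping genes can therefore share or lose reads. BMDM libraries were made after rRNA depletion, and for peritoneal libraries the labels and the methods name different kits. Counts were fitted per experiment in edgeR 4.0.16 (R 4.3.3) with filterByExpr (minimum count 10, minimum total 15), TMM scaling and the quasi-likelihood test, with Benjamini-Hochberg adjustment over all genes tested and a threshold of 0.05. CPM were TMM-scaled, log2 CPM used a prior count of 2, and RPKM used the union of annotated exons. The fit was tested on simulated counts.

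The members and gene lists were chosen with earlier results of these data known. The 10 members were named in every comparison, with up to 3 called genes of each other list by size of change, and the 5 genes with cKO against WT changes closest to Bcl2l11. Some genes that this rule names are not reported here. Double knockouts were compared with the equal-weight mean of sets 1 to 3, since the labels do not tie a set to a line. The 2 day 8 libraries with conflicting labels entered no comparison. Alternatives were DESeq2 1.42.0, RLE scaling, no filter, fewer groups in the model, a replicate block, each library left out and each set alone as reference. Replicate numbers were taken to pair libraries where all 3 same-numbered pairs correlated above 0.1 in their deviations from group means, which held for cKO against WT on days 3 and 7 and in peritoneal macrophages, for day 7 against day 3 in cKO, and in WT for IFNg and for control against no antibody.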

Additional observations from a re-analysis of the deposited data

Results flagged for a closer look

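Some cKO against WT differences pointed in opposite directions in different sets or arms, with every library of one moving against every library of the other, and the difference between them was not tested. The log2 fold changes in sets 1, 2 and 3 were -1.67, 0.54 and -1.87 for Bmf, 1.06, -0.16 and 1.13 for Bcl2, and 0.62, -0.49 and 0.73 for Bcl2l1. For Pmaip1 the difference was -1.51 with no antibody and 1.18 with control antibody.

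The 2 day 8 libraries that entered no comparison held some members above the highest untreated WT library of day 8. In the first, whose title names IFNg, Bcl2l11 was at 132.5 CPM, Bid at 80.55, Bax at 53.78 and Bak1 at 70.78. In the second, whose title names no treatment, Bcl2l11 was at 113.8 CPM, Bid at 215.8, Bbc3 at 21.36, Pmaip1 at 27.66, Bak1 at 165.8 and Mcl1 at 965.2. On the same scale treated cKO replicate 2 held Bid at 218.1 CPM, Bak1 at 170.1 and Mcl1 at 978.9, and the untreated cKO libraries held Bid at 73.05 and 84.31.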

How the results depend on the processing

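Of 79 member calls in 29 comparisons, 37 held in every alternative, and of 211 results not called, 147 were never called and 77 changed sign. Counts of members called are given with the percentage of all genes called in the same fit. With only the compared groups in the model they went to 1 on day 5 (0.895%), 0 on day 7 (0.13%), 1 for day 7 against day 3 in WT (7.34%) and 2 in cKO (20.1%), 1 on day 8 untreated (3.0%), 1 for IFNg in cKO (8.49%), 5 with control antibody (24.2%), 0 for IFNAR1 against control antibody in WT (0%), 5 and 4 for control against no antibody in WT and cKO (17.5% and 11.2%), 1 for H3.3cKO:MavsKO (15.1%) and 4 for H3.3cKO:Irf7KO against cKO (15.7%). DESeq2 called 2 on day 7 (4.41%), 2 on day 8 after IFNg (9.46%), 3 for IFNAR1 against control antibody in WT (20.7%), 5 for control against no antibody in WT (15.7%) and 2 for H3.3cKO:Irf7KO against cKO (10%). Without the filter there was 1 on day 8 after IFNg (3.99%), in peritoneal macrophages (2.14%), with no antibody (2.84%), with control antibody (2.02%) and for control against no antibody in WT (3.49%), and 2 for H3.3cKO:Irf7KO against cKO (4.45%). RLE scaling gave 1 on day 8 after IFNg (5.84%). Placing the 2 conflicting libraries by title, against their Isg15 and Rsad2 levels, left 0 calls for IFNg in cKO (0%), and by library name 6 (45.3%).

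Leaving out 1 library gave 0 to 2 calls on day 7 (0.391% to 5.16%), 1 to 5 for day 7 against day 3 in WT (14.3% to 33.6%), 0 to 2 in cKO (7.34% to 18.4%), 0 to 1 for the change in the cKO effect (0% to 0.921%), 0 to 5 on day 8 after IFNg (0.724% to 34.4%), 3 to 5 for IFNg in WT (28.7% to 33.2%), 3 to 6 in cKO (16.6% to 41.5%), 0 to 2 for the difference in the IFNg response (0% to 24.3%), 0 to 1 in peritoneal macrophages (0.298% to 1.18%), 0 to 4 with no antibody (2.5% to 19%), 0 to 1 with control antibody (1.83% to 3.59%), 0 to 7 for IFNAR1 against control antibody in WT (1.83% to 38.2%), 0 to 6 for control against no antibody in WT (0.727% to 15.9%) and 0 to 2 for H3.3cKO:Irf7KO against cKO (5.25% to 10.6%). Bcl2l11 on day 8 after IFNg ran from -0.59 to 1.13. Where this left 1 cKO library, it was assumed to vary like the other groups.

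With 1 set as reference, H3.3cKO:MavsKO against cKO gave 1 call (set 3, 19.1%), H3.3cKO:Irf7KO against cKO gave 2, 2 and 0 (sets 1, 2 and 3, with 8.53%, 20.8% and 1.23%, and 0 with the sets that share its gene list, chosen after seeing the data), and H3.3cKO:MavsKO against WT gave 5 (set 2, 23.2%). Reversed against WT with set 2 alone were Bmf (0.94 and 0.05), Bcl2 (-0.64 and -0.18) and Bcl2l1 (-0.20 and -0.43) in H3.3cKO:StingKO and H3.3cKO:MavsKO, Bbc3 in H3.3cKO:MavsKO (0.18), and Bbc3 (0.49), Bcl2 (-0.13), Bcl2l1 (-0.38) and Mcl1 (0.03) in H3.3cKO:Irf7KO. With set 1 alone Bbc3 in H3.3cKO:StingKO was -0.04. The replicate block changed the calls of Bbc3 for IFNg in WT (0.60) and of Bcl2 (-0.68) and, within genotype, Bmf (1.14) for control against no antibody in WT, and, where the numbers were not shown to pair, of Mcl1 in H3.3cKO:StingKO against WT (0.19, adjusted p = 0.0409). The causes were not tested. Day 8 counts limit low members most, with 11 counts of Bmf in treated cKO replicate 1.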

Other observations

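Outside the 10 members, p53-arm genes differed between genotypes with no antibody, where 5 of 7 were lower in cKO and 8.16% of genes were called. Phlda3 fell by 3.01, Zmat3 by 1.39 and Mdm2 by 1.14 on the log2 scale. In the same comparison the death receptor genes Fas and Tnfrsf10b fell by 1.96 and 1.56, and the ligand gene Tnfsf10 rose by 3.43. In sets 1 and 3, 3 of the 7 p53-arm genes rose: Trp53 by 0.60 and 0.61, Cdkn1a by 0.54 and 0.57, and Mdm2 by 0.51 and 0.55. That count stands beside 34.6% and 35.9% of all genes called in either direction. In set 2, 1 of the 7 was called higher, where 21.9% of genes were called. The mean CPM there went from 92.4 to 106.5 for Trp53, from 245 to 269 for Cdkn1a and from 175 to 204 for Mdm2.

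After IFNg in cKO, 5 of 9 apoptosome and caspase genes rose, among them Cycs (1.92) and Diablo (1.69), and 2 of 3 caspase inhibitor genes rose, Birc3 by 1.63 and Birc2 by 1.41. In that comparison, with 2 libraries in each group, 33.9% of all genes were called.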
